A study of Homo sapiens with 8 samples.

Results

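The genes described here are 180 human zinc-finger genes named ZNF followed by a number, measured by RNA sequencing in HCT116 cells. They were taken from 552 ZNF symbols among 55075 genes by a mean raw count of at least 200 over 8 libraries. The rule uses measured counts, so the level of a member is a description and not a result. HCT116 is a human colon cancer line, and the study compared it (WT) with a derived line lacking FBXW7 (KO), the substrate receptor of a ubiquitin ligase. Both lines were heated at 42 °C for 1 h, and recovery was 2 h at 37 °C. Libraries carry the label heat shock or recovery, read here as taken before and after that recovery step, since the labels give 1 protocol for all samples. Each of the 4 groups had 2 libraries. All 8 samples had been heated, and unheated cells were not analysed here. The series' text calls the replicates biological, and the sources used here state neither the number of KO clones nor whether the 2 libraries of a group came from separate cultures. P-values thus measure the spread between these libraries, and a difference between the lines is a difference between these 2 lines.

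Most ZNF proteins are Krüppel-type factors. They carry rows of C2H2 fingers, each a loop held by a zinc ion between a pair of cysteines and a pair of histidines, and neighbouring fingers read successive stretches of DNA. Many also carry a KRAB domain, which recruits TRIM28 and, through it, the histone methyltransferase SETDB1 and heterochromatin proteins to silence retrotransposons and other targets. Others carry a SCAN dimerization domain, act as activators, or work on RNA and ribosomes.

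The KO label was checked first on FBXW7 itself. FBXW7 was measured at 33.5 and 31.4 CPM (a share of all counted reads, after scaling of library sizes) in WT heat shock, 23.0 and 21.7 in WT recovery, 17.4 and 14.9 in KO heat shock and 14.0 and 13.8 in KO recovery. Every KO library lay below every WT library, and the transcript was not absent from KO cells, with a log2 difference of -1.01 ± 0.10 at heat shock (adjusted p = 1.9e-06). Libraries held 15507896 to 34387618 counts, with the KO libraries deeper than the WT ones, and ZNF members took 0.512 to 0.680% of them. All 9 epithelial markers were detected. Of 12 fibroblast, immune and erythroid markers 10 stayed under 1 CPM in every library, among them CD3E and LUM at 0. The others were detected, CD68 at 16.1 to 29.8 CPM and COL1A1 at 6.25 to 9.83 CPM, beside 7.77 to 13.4 CPM for the epithelial CDX2. The 2 count columns of a deposited comparison were assigned to recovery and heat shock by the sequence in which its name lists the libraries, together with the sign of the authors' fold change. If that order were wrong, each recovery change given here would change sign.

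The members differ widely in base composition, and this is visible in the part of the transcript that encodes the fingers. Each line gives the first finger with its linker that a script found in a member, 84 bases long, with the codons of the metal-binding cysteines and histidines in capitals. These 6 were picked after the values were seen, 3 with repeats of low GC content and 3 with repeats of high GC content. They were read from GENCODE transcripts, and their GRCh38 positions are chr7:64706704-64706787 (+ strand), chr19:21057011-21057094 (+), chr1:247157169-247157252 (-), chr19:42080095-42080178 (+), chr19:42225823-42225906 (+) and chr7:149432277-149432360 (-).
ZNF107: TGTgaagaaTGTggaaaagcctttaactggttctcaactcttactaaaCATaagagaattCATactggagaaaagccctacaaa
ZNF430: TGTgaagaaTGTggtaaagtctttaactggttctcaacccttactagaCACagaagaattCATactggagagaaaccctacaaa
ZNF124: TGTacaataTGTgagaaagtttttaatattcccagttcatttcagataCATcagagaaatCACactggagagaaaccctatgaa
ZNF574: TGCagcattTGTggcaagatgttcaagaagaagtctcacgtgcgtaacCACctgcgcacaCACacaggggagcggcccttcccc
ZNF526: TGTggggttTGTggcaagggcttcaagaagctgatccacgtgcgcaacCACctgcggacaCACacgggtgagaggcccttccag
ZNF777: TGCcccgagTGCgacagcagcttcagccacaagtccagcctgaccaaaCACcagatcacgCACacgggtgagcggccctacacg

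The spacing of the capitals is the same in all 6 because the search pattern required it. The GC content of these repeats ran from 33.3% in ZNF124 to 63.1% in ZNF777. The repeats of ZNF107 and ZNF430 were identical at 75 of 84 bases (89.3%), and those of ZNF107 and ZNF777 at 45 of 84 (53.6%). Reads were 50 bases long, per the labels. The assignment of reads that match several members is unstated in the labels, so counts of such close relatives may share reads.

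Promoters were examined because 48 of 75 members with a KRAB pattern, described further on, fell in KO recovery. RefSeq promoters (GRCh38.p14, 250 bases before to 50 bases after the start) were matched for 154 of the 180 members. The 4 shown were also chosen after their values were seen: ZNF107, ZNF430 and ZNF100 are KRAB members that were high in KO heat shock, and ZNF593 rose in KO recovery. They lie at chr7:64665883-64666182 (+), chr19:21020407-21020706 (+), chr19:21767530-21767829 (-) and chr1:26169658-26169957 (+). Capitals mark the CCAAT box, the core bound by ETS factors, which reads CCGGAAG, and the block CTTTGTCTC, each on either strand.
ZNF107: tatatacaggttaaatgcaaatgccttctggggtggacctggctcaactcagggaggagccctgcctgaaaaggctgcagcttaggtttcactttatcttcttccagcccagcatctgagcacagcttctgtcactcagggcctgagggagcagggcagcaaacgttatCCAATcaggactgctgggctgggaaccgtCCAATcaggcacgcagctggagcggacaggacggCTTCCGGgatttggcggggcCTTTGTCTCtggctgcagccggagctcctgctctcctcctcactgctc
ZNF430: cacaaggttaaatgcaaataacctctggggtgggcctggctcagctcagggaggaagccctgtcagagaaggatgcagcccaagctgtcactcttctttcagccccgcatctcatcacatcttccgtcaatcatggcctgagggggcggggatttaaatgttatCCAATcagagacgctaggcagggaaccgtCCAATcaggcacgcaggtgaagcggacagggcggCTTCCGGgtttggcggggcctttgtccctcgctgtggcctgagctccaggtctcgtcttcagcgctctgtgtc
ZNF100: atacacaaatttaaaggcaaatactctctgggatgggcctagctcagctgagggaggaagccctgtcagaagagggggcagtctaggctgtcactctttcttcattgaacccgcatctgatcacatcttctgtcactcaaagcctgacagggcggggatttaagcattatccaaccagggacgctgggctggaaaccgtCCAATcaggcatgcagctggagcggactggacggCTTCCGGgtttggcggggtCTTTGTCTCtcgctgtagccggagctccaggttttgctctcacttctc
ZNF593: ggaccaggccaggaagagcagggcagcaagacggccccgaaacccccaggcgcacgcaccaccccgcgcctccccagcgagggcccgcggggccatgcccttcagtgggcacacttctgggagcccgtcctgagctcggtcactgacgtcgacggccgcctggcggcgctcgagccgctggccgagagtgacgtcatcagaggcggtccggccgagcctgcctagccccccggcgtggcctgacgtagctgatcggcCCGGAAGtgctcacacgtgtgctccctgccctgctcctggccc

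The promoters of ZNF107, ZNF430 and ZNF100 were alike, with 78.9 to 80.4% identical positions in global alignments, against 47.8 to 48.8% between each of them and ZNF593. Searched over all matched promoters on both strands, CCGGAAG was found in 46.1% of members, 56.7% of those with a KRAB pattern and 37.2% of those without, compared with 21.1% of tested genes and 10.3% of all promoters in the table. A member or tested gene counted when any of its promoters held the letters, while promoters in the table counted singly. The last share thus has another unit, and tested genes are the 9897 with a promoter. CCAAT was found in 45.5% of members and 43.1% of tested genes, GGGCGG (a GC box) in 71.4 and 76.7%, and GAANNTTC (the core of a heat shock element) in 7.14 and 6.69%. Among members lower in KO recovery, described further on, 48.6% held CCGGAAG, against 43.8% of the other members. CTTTGTCTC was chosen by eye from the printed promoters, so its share is a description of these genes only: 10.4% of KRAB members and 0.727% of tested genes. Overlaps between these 5 motifs were not examined, and a match is a string of letters, not a shown binding site.

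After 2 h of recovery in WT cells more members were lower than higher. Of 180 members 67 fell and 45 rose, by edgeR's quasi-likelihood test within recovery and heat shock pairs that share a line and replicate number (a pairing named in the series' text), with a Benjamini-Hochberg adjusted p under 0.05 over 17471 genes. The background was 26.0% lower and 24.8% higher among all tested genes, against 37.2 and 25% of members. Among the 10191 genes with a mean count of at least 200, as the members have, 37.8% were lower and 24.3% higher, so the members' shares in WT were near that background. CPM is a share of the RNA sampled, so lower RNA in fewer cells and in every cell cannot be told apart. The members' median log2 change was -0.10, as was that of those 10191 genes, and upper-quartile scaling, which moved the median of all genes from 0.01 to 0.10, put it at -0.01. With offsets for GC content and length 85 members fell and 28 rose, with a median of -0.22. Of the 17471 tested genes, which include those with mean counts under 200, 5414 then fell and 3486 rose, with a median of -0.08.

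The largest falls in WT were those of ZNF124, ZNF142, ZNF408, ZNF296, ZNF574 and ZNF202. ZNF124, a KRAB member with 8 fingers, had 13.3 and 13.5 CPM in WT heat shock and 4.25 and 4.98 in WT recovery, a 2.90-fold fall (log2 -1.54 ± 0.16, adjusted p = 3.2e-07). ZNF142, with 31 fingers and no KRAB pattern, had 83.2 and 63.1 CPM at heat shock and 26.3 and 26.0 at recovery, a 2.78-fold fall (log2 -1.47 ± 0.11, adjusted p = 4.7e-09). ZNF777 had 40.2 and 35.2 CPM at heat shock and 14.5 and 15.8 at recovery, a 2.49-fold fall (log2 -1.31 ± 0.11, adjusted p = 4.4e-08). In these 3 genes each recovery library lay below both heat shock libraries, as groups that do not overlap did for 75.4% of all tested genes. ZNF408 (-1.46 ± 0.15), ZNF296 (-1.42 ± 0.16), ZNF574 (-1.34 ± 0.12) and ZNF202 (-1.33 ± 0.13), a SCAN factor known from lipid genes, fell by similar amounts on the log2 scale. Exons of ZNF142 overlap those of BCS1L on the other strand over 476 bases, and BCS1L, at 19.2 CPM against 48.9 for ZNF142, had a log2 change of -0.67 in WT.

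The largest rises in WT were those of the pseudogene ZNF204P, ZNF217, ZNF277, ZNF516, ZNF627 and ZNF397. ZNF204P had 7.88 and 10.1 CPM at heat shock and 28.7 and 28.5 at recovery, a 3.19-fold rise (log2 1.67 ± 0.14, adjusted p = 3.5e-08). Its raw counts were 473 and 480 in WT recovery and 123 to 251 in the other libraries. The count rule thus leaned on the group where ZNF204P was high, and its rise is a description. ZNF217, a repressor amplified in breast and colon tumours, had 28.8 and 29.8 CPM at heat shock and 65.3 and 66.3 at recovery, a 2.25-fold rise (log2 1.17 ± 0.10, adjusted p = 3.4e-08). ZNF277 had 14.3 and 17.5 CPM at heat shock and 34.2 and 34.7 at recovery, a 2.17-fold rise (log2 1.12 ± 0.11, adjusted p = 3.1e-07). Replicates of these 3 genes lay close together at recovery, and none overlapped the heat shock libraries. ZNF516, a partner of the LSD1 demethylase, rose by 1.11 ± 0.11 on the log2 scale and the KRAB member ZNF627 by 1.06 ± 0.14. ZNF397 rose by 0.98 ± 0.14, and its exons share 244 bases with ZSCAN30 on the other strand, which changed by 0.57.

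Recovery in KO cells was followed by falls in many more members than rises. Of 180 members 90 fell and 23 rose, 50.0 and 12.8%, against a background of 21.1% lower and 20.6% higher among all tested genes and 27.4 and 27.4% among genes with a mean count of at least 200. The median log2 change of the members was -0.29, and that of all tested genes -0.02. Members moved the same way in both pairs in 167 of 180 cases, with medians of -0.31 and -0.22. The counts depended on the KO libraries: 45 members fell and 8 rose without KO heat shock replicate 1, 46 and 12 without KO recovery replicate 1, and 67 and 14 without replicate 2 of either group. Calls over all tested genes also dropped when any of these KO libraries was left out. With offsets for GC content and length 58 members fell and 34 rose, with a median of -0.13, beside 2645 and 3225 of the 17471 tested genes. DESeq2 called 70 members lower and 12 higher, beside 2416 and 2385 of all tested genes.

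**Figure D1:**
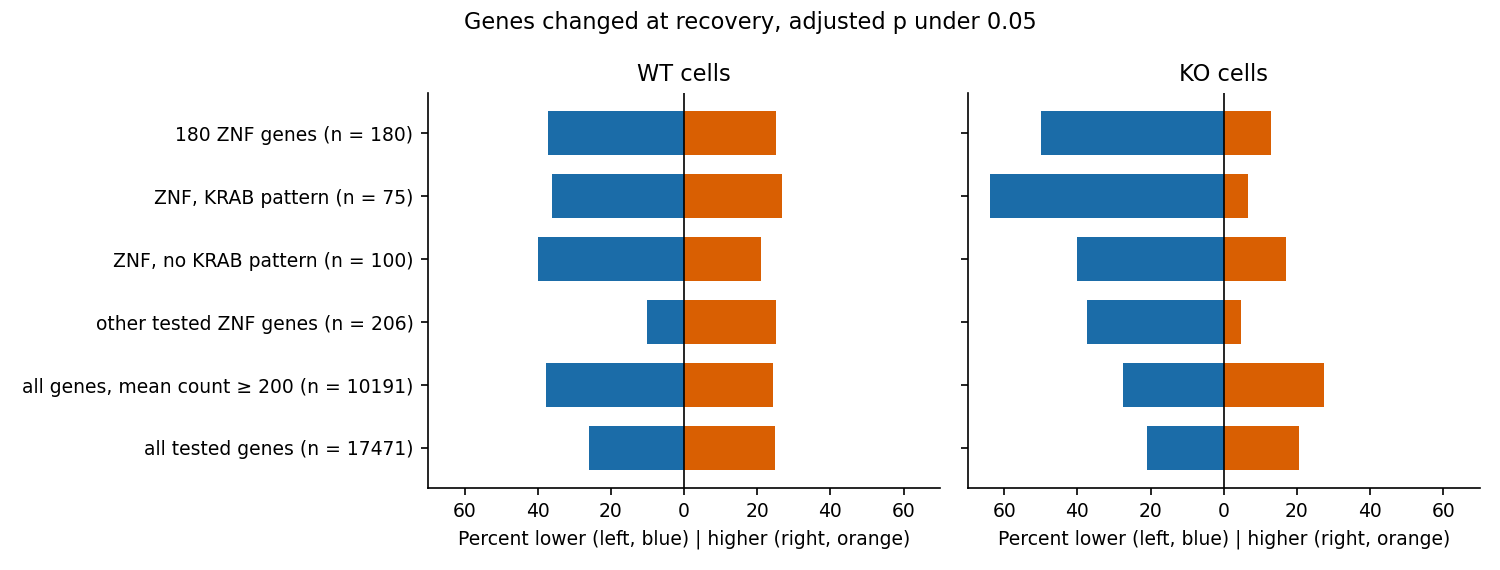
Percent of genes lower (left of 0) and higher (right of 0) at recovery than at heat shock in WT and KO cells, by edgeR's quasi-likelihood test, for the members, their 2 groups by KRAB pattern, the other tested ZNF genes and all genes. In KO cells 64.0% of the members with a KRAB pattern lie to the left, against 21.1% of all tested genes.

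ZNF107, ZNF124, ZNF430, ZNF557, ZNF354A and ZNF264, all with a KRAB pattern, fell most in KO cells. ZNF107, with 16 fingers, had 27.1 and 22.8 CPM in KO heat shock and 9.37 and 10.7 in KO recovery, a 2.47-fold fall (log2 -1.30 ± 0.13, adjusted p = 2.6e-07). In WT cells it had 11.3 and 16 CPM at heat shock and 14.2 and 16.2 at recovery, groups that overlapped (0.17 ± 0.14, adjusted p = 0.324). The high samples for ZNF107 were therefore the KO heat shock libraries, and KO recovery lay below all WT libraries. CPM of the KO groups did not overlap for 74.1% of all tested genes.

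ZNF430 also fell in KO cells from high heat shock libraries. It had 19.4 and 16.5 CPM in KO heat shock, and 7.72 and 9.02 in KO recovery, beside 7.84 to 8.51 across the 4 WT libraries, a 2.13-fold fall in KO cells (log2 -1.09 ± 0.13, adjusted p = 3.3e-06). Its KO recovery libraries lay on either side of the WT values. ZNF124 fell in both lines, from 25.8 and 23.2 to 9.28 and 10.9 CPM in KO cells (2.41-fold, log2 -1.27 ± 0.12, adjusted p = 2.3e-07). In KO heat shock the raw counts were 519 and 581 for ZNF430 and 688 and 815 for ZNF124. In the other libraries they were 129 to 237 and 70 to 286. The count rule thus leaned on the group where these genes were high, and their KO falls are a description. ZNF557 had 17.7 and 18.2 CPM in WT heat shock, 13.9 and 14.2 in WT recovery, 14.5 and 12.7 in KO heat shock and 7.63 and 5.37 in KO recovery, and fell by 1.08 ± 0.13 in KO and by 0.35 ± 0.13 in WT on the log2 scale. ZNF354A (-0.99 ± 0.13) and ZNF264 (-0.98 ± 0.11) fell by nearly as much as ZNF557 in KO cells. The WT fall of ZNF557 did not pass without any single WT library, with log2 changes of -0.33 to -0.39.

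Rises in KO cells were led by 2 genes whose values stood apart from those of the other members. ZNF607, a KRAB member with 18 fingers, had 4.19 and 3.81 CPM in KO heat shock and 23.5 and 17.3 in KO recovery, a 5.03-fold rise (log2 2.33 ± 0.15, adjusted p = 1.1e-09). In WT cells it had 15.8 and 22.3 CPM at heat shock and 16 and 14.6 at recovery (-0.30 ± 0.14, adjusted p = 0.0818), so the KO heat shock libraries were the low ones. ZNF593, whose yeast counterpart helps to export the large ribosomal subunit, had 19.1 and 19.2 CPM in KO heat shock and 77.9 and 60.6 in KO recovery, a 3.58-fold rise (log2 1.84 ± 0.11, adjusted p = 1.9e-10).

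In WT cells ZNF593 moved the other way, from 44.6 and 41.8 to 21.8 and 21.0 CPM, a 2.02-fold fall (log2 -1.01 ± 0.11, adjusted p = 7.3e-07). Its exons share 769 bases with RP11-96L14.7 on the other strand, which was measured at 17.6 CPM and changed by -0.74 in WT and 0.42 in KO. ZNF579 (0.88 ± 0.13), the KRAB member ZNF57 (0.84 ± 0.14), ZNF771 (0.66 ± 0.14) and ZNF526 (0.63 ± 0.12) also rose in KO cells. ZNF771 shares 666 exon bases with DCTPP1, which was at 65 CPM against 13.4 for ZNF771. Without KO heat shock replicate 1 the rises of ZNF57 (0.53) and ZNF771 (0.35) did not pass, and that of ZNF771 (0.37) did not pass without KO recovery replicate 1.

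**Figure D2:**
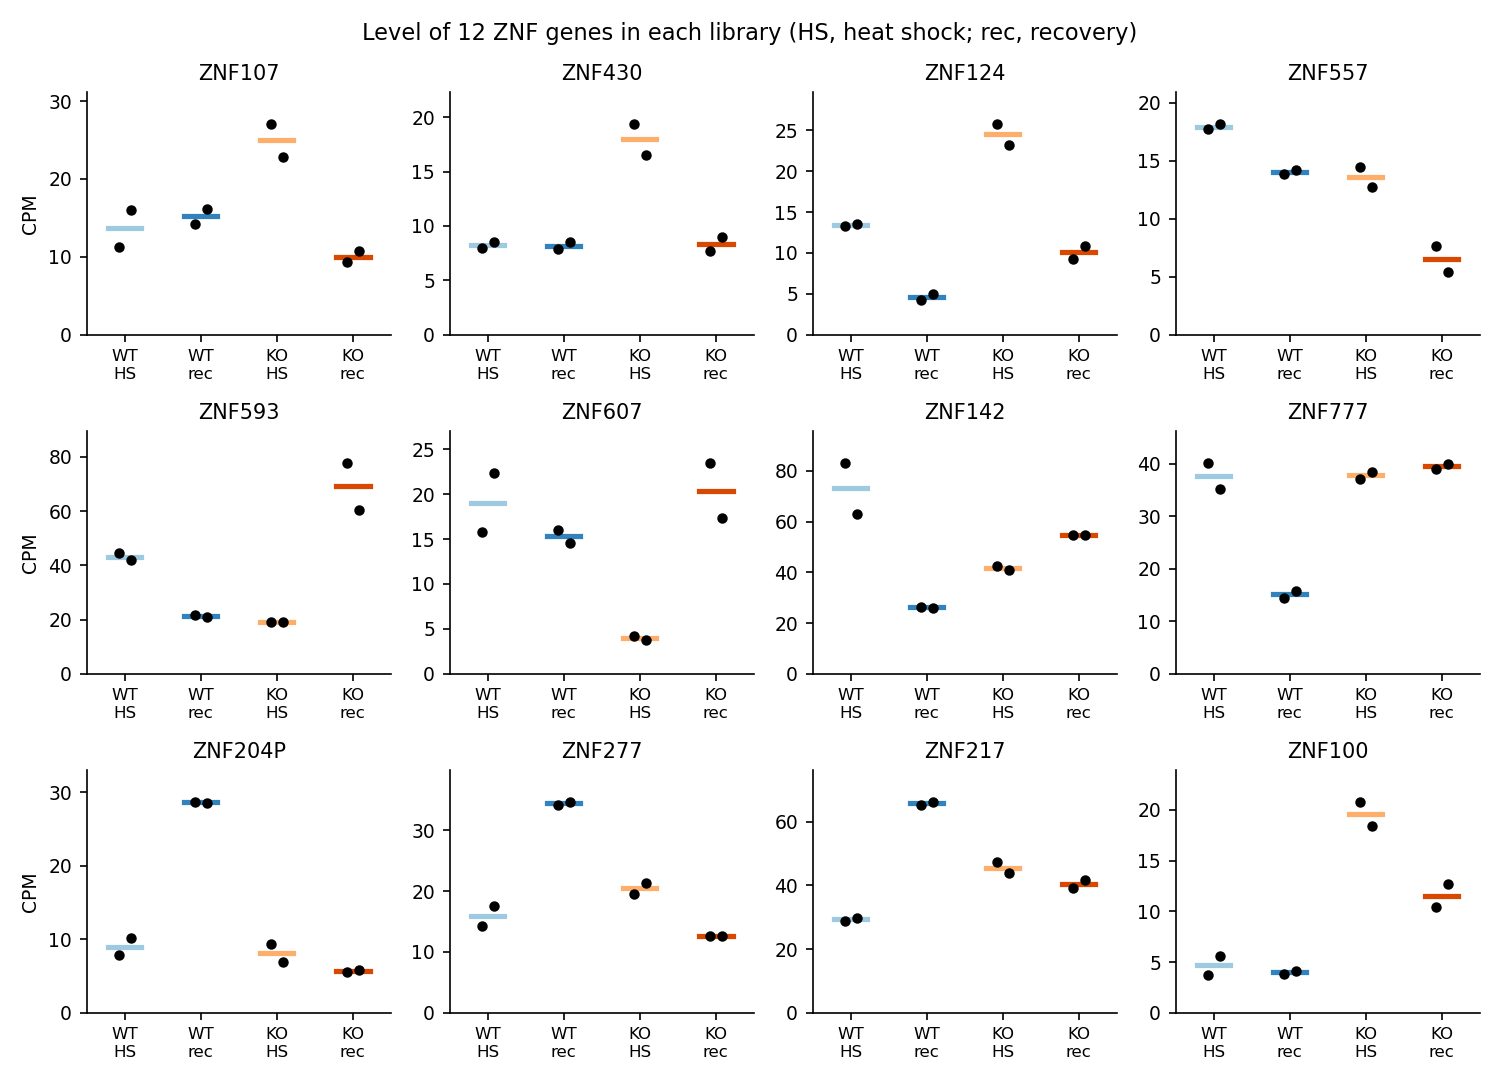
Level of 12 members in CPM (vertical axis, from 0) in each of the 8 libraries (points), with the mean of the 2 libraries as a bar, for WT and KO cells at heat shock (HS) and recovery (rec). ZNF107, ZNF430 and ZNF100 are highest in KO heat shock, while ZNF607 is lowest there at 4.19 and 3.81 CPM.

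The members were divided by a KRAB A-box pattern that a script looked for in the protein translated from the longest coding transcript. The pattern was loosened after members' sequences were viewed and is not a domain annotation. It was present in 75 members, absent in 100, and could not be read in 5 (ZNF204P, ZNF252P, ZNF271, ZNF280B and ZNF670). In WT cells 27 of 75 KRAB members fell and 20 rose, and of those without the pattern 40 fell and 21 rose. In KO cells 48 KRAB members fell and 5 (ZNF337, ZNF343, ZNF57, ZNF584 and ZNF607) rose, with a median of -0.39, and 40 of the others fell and 17 rose, with a median of -0.08. ZNF343, at 16.3 CPM, shares 567 exon bases on the same strand with RP4-734P14.4. That gene was at 89.5 CPM and changed by 0.69 in KO. ZNF337, at 14.5 CPM, shares 2823 exon bases with RP4-694B14.5 on the other strand. The latter was at 14.4 CPM and changed by 0.40 in WT and 0.29 in KO. The number lower in KO was 27 KRAB members and 18 others without KO heat shock replicate 1, 28 and 18 without KO recovery replicate 1, and 32 and 33 without replicate 2 of either KO group. Fewer of all tested genes were also called lower in KO without any of these libraries. The KRAB median lay between -0.34 and -0.40 when any single library was left out, and was -0.21 with offsets for GC content and length, when 33 KRAB members and 24 others were lower. Of the 5 risers only ZNF607 passed under every omission of a KO library: without KO heat shock replicate 1, ZNF57 was at 0.53, ZNF337 at 0.27 and ZNF584 at 0.34, and without KO heat shock replicate 2, ZNF343 was at 0.24.

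KRAB members had a lower median GC content, 43.5% against 47.8%. Among members of 42 to 50% GC, 23 of 32 KRAB members and 9 of 23 others fell in KO recovery, with medians of -0.40 and -0.15. Under 42% GC the counts were 19 of 26 and 25 of 32, with medians of -0.67 and -0.46, and at 50% or more they were 6 of 17 and 6 of 45, with medians of -0.03 and 0.14. Of all tested genes, whatever their mean count, 22.4% fell in KO recovery at 42 to 50% GC, 53.7% under 42% and 5.57% at 50% or more. The part of GC content in the difference between KRAB members and the others was not tested beyond these values. Finger number was also described: in KO cells 46 of 79 members with 10 or more fingers fell, 28 of 56 with 5 to 9, 14 of 35 with 1 to 4 and 0 of 5 with none found, beside 21.1% of all tested genes and 27.4% of those with a mean count of at least 200. The 45 members on chromosome 19, where many KRAB genes lie in clusters, had a median of -0.33 in KO cells, and the 134 on other chromosomes -0.25.

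**Figure D3:**
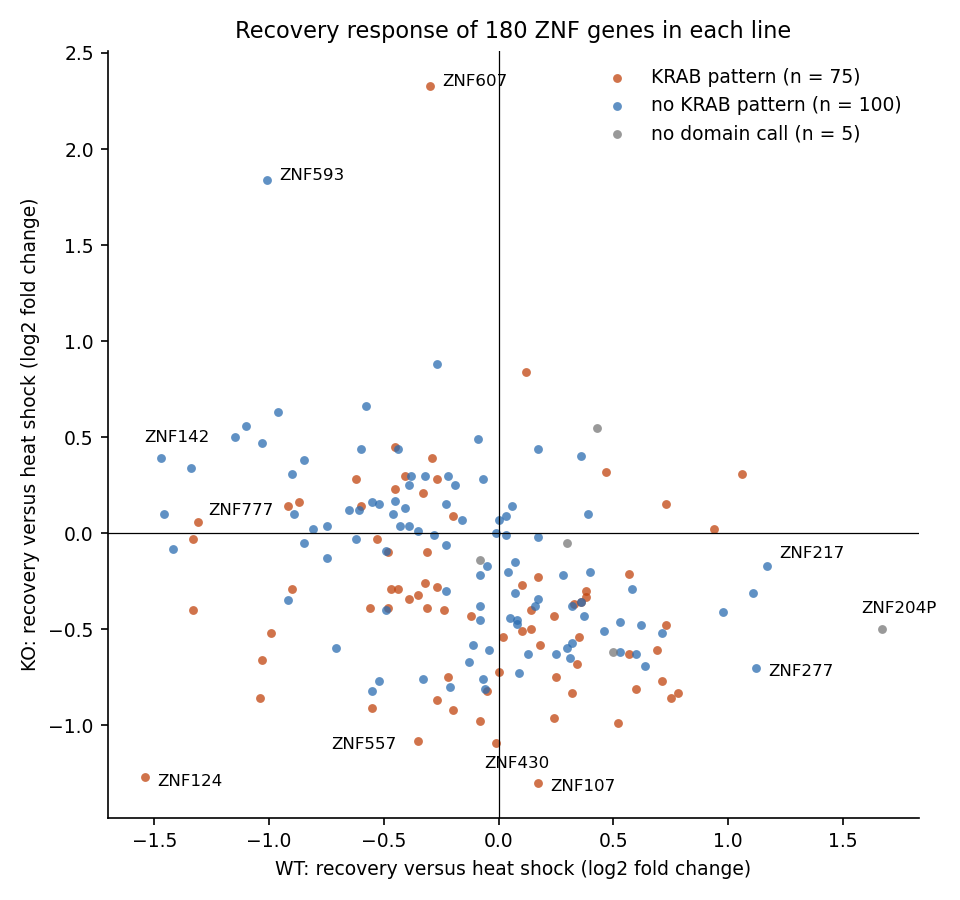
Recovery response (log2 fold change, recovery against heat shock) of each of the 180 members in WT cells (horizontal axis) and KO cells (vertical axis), coloured by KRAB pattern. Most KRAB members lie below 0 on the vertical axis, ZNF124 is low on both axes, and ZNF593 and ZNF607 lie at the top.

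Members could be placed by their calls in both lines, which share no library. The largest set with a call in both, 33 members (18.3%), was higher in WT and lower in KO recovery, against 10.5% of all tested genes and 14.2% of those with a mean count of at least 200. A further 14 members (7.78%) were lower in WT and higher in KO, against 11.5 and 17.8%. Lower in both lines were 21 members (11.7%), against 1.94 and 2.98%, and 15 of these 21 had a KRAB pattern. Members also had larger shares lower in each line alone than all tested genes, and a larger joint share follows in part from that. The 21 changed by -0.31 (ZNF473) to -1.54 (ZNF124) in WT and by -0.29 (ZNF3) to -1.27 (ZNF124) in KO.

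Beside ZNF124, the members with falls in both lines included ZNF544 (-1.04 in WT and -0.86 in KO), ZNF765 (-1.03 and -0.66) and ZNF689 (-0.99 and -0.52), all with a KRAB pattern. They also included 3 SCAN factors, ZNF165 (-0.55 and -0.82), ZNF263 (-0.48 and -0.39) and ZNF496 (-0.39 and -0.34). The number lower in both lines was 10 without replicate 1 of either KO group and 11 without replicate 2, all among the 21. The share of all tested genes lower in both lines also dropped when any of these KO libraries was left out. With GC and length offsets 26 members were lower in both, of which 14 were among the 21, beside 3.38% of all tested genes. ZNF252P, ZNF337 and ZNF646, named after their values were seen, were the 3 members higher in both lines. In that last group each call rested on single libraries: without WT heat shock replicate 1 ZNF252P had 0.11 in WT, and without WT heat shock replicate 2 ZNF337 had 0.26 and ZNF646 0.08. ZNF263 (-0.27) and ZNF496 (-0.30) failed the test in KO when KO heat shock replicate 1 was left out, as did ZNF765 (-0.53) for replicate 2. Across the 180 members the changes in WT and KO were inversely related (Spearman's rho -0.37, over genes, which are not independent), as they were over all 17471 tested genes (rho -0.40).

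The response of a member varied with the GC content of its transcript, and in opposite directions in the lines. Over 179 members with a transcript, Spearman's rho between the GC percentage and the log2 change was -0.48 in WT and 0.58 in KO recovery. Over 16673 tested genes it was -0.36 and 0.47, so the trend was not confined to ZNF genes. Members under 42% GC had medians of 0.09 in WT and -0.50 in KO, and 45 of 61 fell in KO, a share of 73.8% beside 53.7% of all tested genes in that range. At 50% GC or more the medians were -0.45 and 0.10, and 39 of 62 members fell in WT, 62.9% beside 39.6% of all tested genes. Between 42 and 46% GC the members' median in KO was -0.46, against -0.18 for all genes of that range. These ranges were set after the values were seen, and genes in the same library share its depth and base composition. All tested genes include many with lower counts than the members, and no background matched for counts was formed within a GC range. Without GC ranges, 37.2% of members and 37.8% of genes with a mean count of at least 200 fell in WT.

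**Figure D4:**
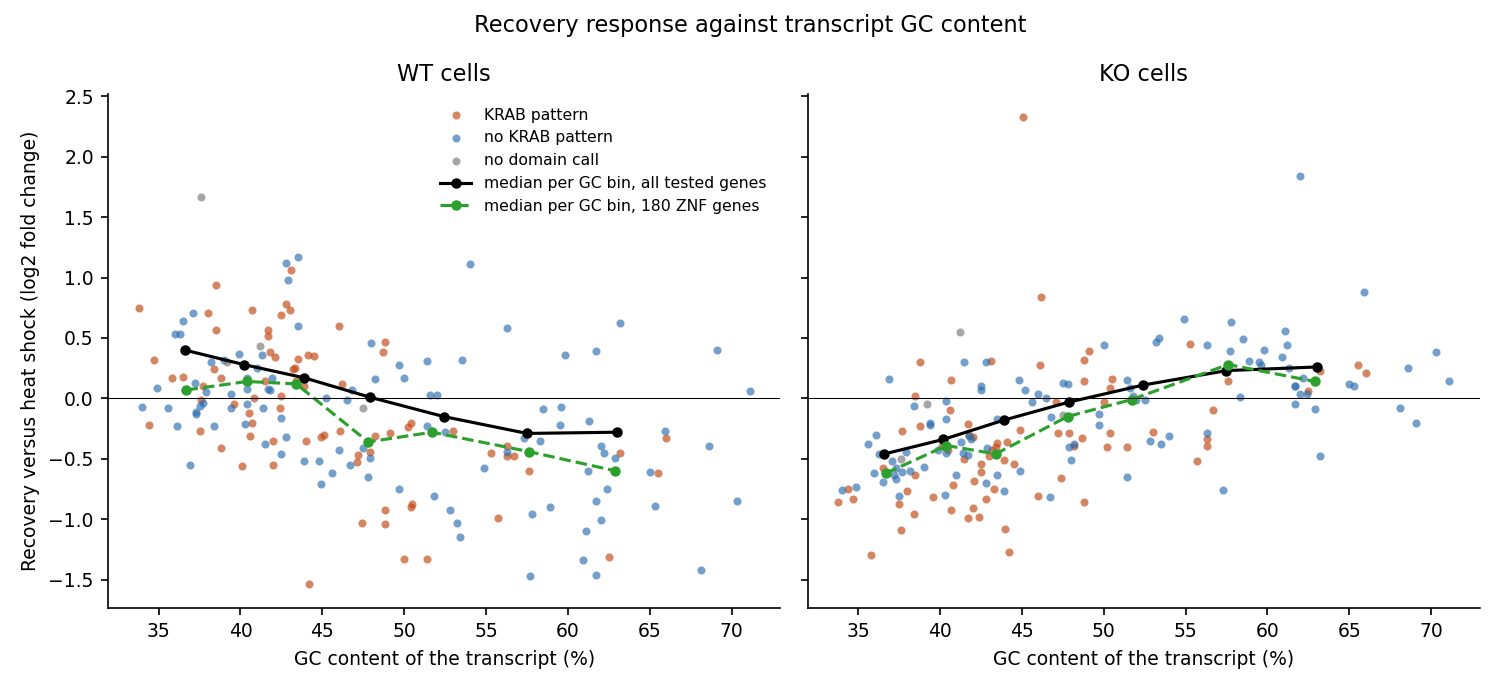
Recovery response (log2 fold change) of each member against the GC content of its transcript in percent, in WT (left) and KO cells (right), with the median per GC range for all tested genes (solid line) and for the members (dashed line). The lines slope down in WT and up in KO, and the members' median lies below that of all genes in every range in WT and in all but the range of 55 to 60% in KO. All tested genes include those with mean counts under 200, so the lines are not matched for counts.

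The responses of the lines differed for many members. By the interaction term of the same fit, 75 members (41.7%) had a lower and 57 (31.7%) a higher response in KO than in WT, against a background of 27.8% lower and 28.5% higher among all tested genes, and 29.8 and 39.6% among those with a mean count of at least 200. The members' median difference was -0.13 on the log2 scale. With GC and length offsets 36 were lower and 62 higher, and the median turned to 0.11, against 0.08 for all tested genes. Of all tested genes 3508 were then lower and 5326 higher, so the members' share with a lower response was near that background. A lower response in KO was most marked for ZNF204P (-2.17 ± 0.21), ZNF277 (-1.81 ± 0.16), ZNF510 (-1.61 ± 0.19), ZNF680 (-1.60 ± 0.20), ZNF354A (-1.51 ± 0.20) and ZNF273 (-1.48 ± 0.25). ZNF593 (2.85 ± 0.15), ZNF607 (2.63 ± 0.21), ZNF142 (1.87 ± 0.15), ZNF574 (1.68 ± 0.16), ZNF335 (1.66 ± 0.19) and ZNF384 (1.65 ± 0.16) had the largest differences in the other direction. ZNF204P reached the count rule through the WT libraries alone, and ZNF510, ZNF680 and ZNF273 through the KO libraries alone. Differences between the lines are a description for these genes.

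ZNF204P illustrates the first kind. Against its rise in WT, it had 9.40 and 6.85 CPM in KO heat shock and 5.49 and 5.83 in KO recovery (-0.50 ± 0.16, adjusted p = 0.0147), so only the WT recovery libraries were high. ZNF277 had 19.6 and 21.3 CPM in KO heat shock and 12.6 and 12.7 in KO recovery (-0.70 ± 0.11, adjusted p = 8.2e-05), below both WT recovery libraries. Without KO heat shock replicate 1 the fall of ZNF204P in KO (-0.23) did not pass. For ZNF142 the KO values were 42.5 and 40.9 CPM at heat shock and 54.7 and 54.8 at recovery (0.39 ± 0.10, adjusted p = 0.00379). That rise of ZNF142 fell short of the threshold, at 0.36, when KO heat shock replicate 2 was left out. ZNF384, a factor found in leukaemia fusions, had 175 and 116 CPM in WT heat shock, 64.1 and 64.2 in WT recovery, 122 and 107 in KO heat shock and 175 and 149 in KO recovery. Its WT heat shock libraries were far apart, and the WT recovery libraries were low.

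Comparing the lines at heat shock, 58 members were higher and 52 lower in KO cells, 32.2 and 28.9%, against a background of 27.4% higher and 28.2% lower of all tested genes and 35.9 and 30.9% of those with a mean count of at least 200. Their median was 0.03, near that of all tested genes (-0.03), and its sign depended on the setting. ZNF100 was the highest relative to WT: it had 3.69, 5.64, 3.83 and 4.15 CPM in the WT libraries and 20.8 and 18.4 in KO heat shock, a 4.19-fold difference (log2 2.07 ± 0.17). ZNF100, ZNF124, ZNF273, ZNF296, ZNF430, ZNF510 and ZNF680 are among 26 members that average under 200 counts over the WT libraries and reach the count rule through the KO libraries. ZNF204P is the 1 member that reaches it through WT alone. A difference between the lines or their responses is a description for these members, which stay in the counts given. So is a recovery change in the line that admitted them. ZNF510 (1.14 ± 0.12), ZNF354A (1.13 ± 0.15), ZNF430 (1.12 ± 0.13), ZNF644 (1.05 ± 0.09), a partner of the G9a and GLP methyltransferases, and ZNF92 (1.03 ± 0.12) followed. ZNF607 (-2.25 ± 0.19) and ZNF704 (-2.18 ± 0.12) were the lowest relative to WT. ZNF593 (-1.17 ± 0.11), ZNF512B (-1.01 ± 0.13), ZNF579 (-0.96 ± 0.14) and ZNF623 (-0.95 ± 0.10) were also lower.

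At recovery 64 members were higher and 65 lower in KO cells, 35.6 and 36.1%, against 31.8% higher and 31.3% lower of all tested genes and 44.9 and 25.8% of those with a mean count of at least 200. ZNF704, a relative of ZNF395, differed between the lines in both conditions: it had 49.9, 52.7, 61 and 54.6 CPM in the WT libraries and 11.3, 11.3, 7.59 and 10.2 in the KO libraries (log2 -2.69 ± 0.12 at recovery, adjusted p = 5.8e-10). All 4 KO libraries lay far below all 4 WT libraries. Groups that do not overlap were common between the lines, at 76.1% of tested genes at heat shock and 83.5% at recovery. ZNF204P (-2.34 ± 0.16), ZNF623 (-2.18 ± 0.10), ZNF516 (-2.05 ± 0.11), ZNF277 (-1.45 ± 0.11) and ZNF33B (-1.43 ± 0.13) were also lower at recovery. ZNF593 (1.69 ± 0.12), ZNF100 (1.54 ± 0.19), ZNF296 (1.53 ± 0.17), ZNF777 (1.38 ± 0.10), ZNF202 (1.36 ± 0.12) and ZNF384 (1.34 ± 0.15) were higher. ZNF777 had 37.1 and 38.5 CPM in KO heat shock and 39.0 and 40.0 in KO recovery, levels like those of WT heat shock, and the WT recovery libraries were the low ones. These 2 comparisons and the recovery comparisons use the same libraries, so their values are not independent.

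Of 16 members placed by choice on a list for RNA, ribosome, spindle or SUMO biology, 7 fell and 2 rose (ZNF277 and ZNF385A) in WT recovery. In KO recovery 5 fell (ZNF277, ZNF318, ZNF326, ZNF385A and ZNF451) and 5 rose (ZNF330, ZNF335, ZNF593, ZNF622 and ZNF830). These shares, 43.8% lower in WT and 31.2% each way in KO, were near those of genes with a mean count of at least 200, at 37.8% lower in WT and 27.4% each way in KO. ZNF622, which matures the large ribosomal subunit in the cytoplasm, had 43.7 and 41.5 CPM in WT heat shock, 21.5 and 20.2 in WT recovery, 32.7 and 31.6 in KO heat shock and 48.3 and 41.1 in KO recovery. It fell in WT (-1.03 ± 0.11) and rose in KO (0.47 ± 0.10), and the difference was 1.5 ± 0.14 (adjusted p = 9.2e-08). The nucleolar ZNF330 (-0.38 ± 0.10 in WT and 0.30 ± 0.10 in KO) moved the same ways as ZNF622 and ZNF593. So did ZNF335 (-1.10 ± 0.14 and 0.56 ± 0.12), which is not taken here as a ribosome factor. ZNF598, a ubiquitin ligase that recognizes collided ribosomes, fell in WT (-0.61 ± 0.11) and did not pass in KO (0.12 ± 0.10, adjusted p = 0.340). ZNF207, which loads BUB3 at kinetochores and had the highest mean count of all members (6019), fell in WT (-0.55 ± 0.10). The RNA-binding ZNF385A went the other way, with 0.62 ± 0.09 in WT and -0.48 ± 0.09 in KO. Without KO heat shock replicate 1 the KO changes of ZNF622 (0.38), ZNF330 (0.35), ZNF830 (0.30), ZNF318 (-0.42) and ZNF326 (-0.25) did not pass, and without WT heat shock replicate 1 neither did the WT fall of ZNF330 (-0.28). With GC and length offsets ZNF451 was at -0.15 and ZNF326 turned to 0.18 in KO.

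Of 16 members without KRAB that are known as transcriptional or chromatin regulators, 8 fell and 3 rose (ZNF217, ZNF395 and ZNF516) in WT, and 7 fell and 1 (ZNF384) rose in KO. That is 50.0% lower and 18.8% higher in WT, beside 37.8 and 24.3% of genes with a mean count of at least 200, and 43.8 and 6.25% in KO, beside 27.4% each way. ZNF143, an activator of small nuclear RNA and many other promoters, fell in WT (-0.46 ± 0.11), as did its close relative ZNF76 (-0.90 ± 0.13), and neither passed in KO (adjusted p = 0.455 and 0.0506). ZNF592 (-0.81 ± 0.10), ZNF532 (-0.62 ± 0.11) and ZNF687 (-0.35 ± 0.11), which form a complex with ZMYND8, all fell in WT, and their log2 changes in KO lay between -0.03 and 0.02. ZNF281 (-0.31 ± 0.09) and ZNF148 (-0.38 ± 0.09), paralogues that bind GC-rich promoters, fell in KO, as did ZNF518A (-0.73 ± 0.09) and ZNF644 (-0.58 ± 0.09), both linked to G9a and GLP. None of these 4 passed in WT, where they had log2 changes from -0.11 to 0.09. ZNF367 fell in both, by 0.52 ± 0.11 in WT and by 0.77 ± 0.10 in KO. Without WT heat shock replicate 1 the WT falls of ZNF143 (-0.31) and ZNF687 (-0.22) did not pass, and without replicate 2 the rise of ZNF395 (0.28) did not. Without KO heat shock replicate 1 the KO changes of ZNF281 (-0.17), ZNF148 (-0.32) and ZNF384 (0.47) did not pass. Under GC and length offsets ZNF281 (-0.01), ZNF148 (0.10) and ZNF644 (-0.12) no longer passed as lower in KO.

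Of 11 SCAN members 7 fell and 1 (ZNF397) rose in WT, and 6 fell and 0 rose in KO, and their median GC content was 51.4%. Their shares lower were 63.6% in WT and 54.5% in KO, beside 37.8 and 27.4% of genes with a mean count of at least 200. ZNF24, a SCAN factor known to repress VEGF, had 88.3 to 104 CPM in the 4 WT libraries, 182 and 161 in KO heat shock and 103 and 119 in KO recovery. Its KO heat shock libraries were the high ones, and it fell in KO by 0.63 ± 0.10 on the log2 scale. That fall was lost on leaving out KO heat shock replicate 1 (-0.44), KO recovery replicate 1 (-0.42), and with GC and length offsets (-0.16). Of the KRAB proteins with known targets only ZNF37A, ZNF445 and ZNF587 reached the count rule. ZNF445, a regulator of imprinted loci, fell in WT (-0.53 ± 0.10), ZNF37A fell in KO (-0.96 ± 0.11), and ZNF587 fell in WT (-0.32 ± 0.12). Without WT heat shock replicate 1 ZNF587 was at -0.25 and did not pass.

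The silencing machinery that KRAB proteins recruit was measured beside them. Of 23 co-repressor and heterochromatin genes 10 fell and 3 rose (CBX3, DNMT3A and FAM208A) in WT recovery. In KO recovery 8 fell (ATF7IP, CBX5, DNMT3A, DNMT3B, FAM208A, HDAC2, MPHOSPH8 and SMARCAD1) and 7 rose (CHD3, EHMT2, HDAC1, SETDB1, SUV39H1, TRIM28 and UHRF1). At recovery 13 were higher and 2 lower (DNMT3A and FAM208A) in KO than in WT, 56.5 and 8.70%, beside 44.9 and 25.8% of genes with a mean count of at least 200. The 43.5% lower in WT recovery and the 34.8% lower and 30.4% higher in KO recovery stood beside 37.8% and 27.4% each way. TRIM28, the partner of the KRAB domain, had 825 and 619 CPM in WT heat shock, 360 and 354 in WT recovery, 491 and 534 in KO heat shock and 799 and 715 in KO recovery. It fell in WT (-1.0 ± 0.11) and rose in KO (0.56 ± 0.11), opposite to most KRAB members in KO. SETDB1 (-0.29 ± 0.10 and 0.42 ± 0.09), UHRF1 (-1.47 ± 0.10 and 0.51 ± 0.10) and SUV39H1 (-1.68 ± 0.12 and 0.37 ± 0.10) moved as TRIM28 did, and FAM208A of the HUSH complex moved the other way (0.74 ± 0.09 and -0.67 ± 0.09). Transcript GC content was 63.7% for TRIM28, 57.6% for SUV39H1, 50.9% for SETDB1 and 36.0% for FAM208A. The median of KRAB members was 43.5%, and the part of GC content in these directions was not tested. Without KO heat shock replicate 1 the KO rises of TRIM28 (0.42), SETDB1 (0.39), UHRF1 (0.41) and SUV39H1 (0.24) did not pass. In WT, SETDB1 (-0.21) and CBX3 (0.14) did not pass without WT heat shock replicate 1, nor DNMT3A (0.11) without replicate 2.

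Related finger families gave other counts. Of 36 ZBTB genes 18 fell and 8 rose in WT, and 11 fell and 9 rose in KO, with a median of 0.03 in KO. Of all tested genes 26.0% fell and 24.8% rose in WT, and 21.1% fell and 20.6% rose in KO, beside 50.0 and 22.2%, and 30.6 and 25%, of the ZBTB genes. The 14 tested ZSCAN and ZKSCAN genes had medians of 0.21 in WT and -0.35 in KO, and the 16 tested ZFP genes 0.27 and -0.27. The 206 tested ZNF genes under the count rule had a median of 0.23 in WT and -0.45 in KO, with 21 lower and 52 higher in WT and 77 lower and 10 higher in KO (10.2 and 25.2%, and 37.4 and 4.85%). Since the rule averages raw counts and KO libraries are deeper, it admits genes high in KO more readily, and the median between the lines at recovery was -0.73 under the rule and -0.03 for members. Just inside it lay ZNF678, ZNF174 and ZNF589, with mean counts of 200.9, 202.0 and 208.5, and just outside ZNF193, ZNF268 and ZNF138, with 197.0, 195.2 and 191.6.

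Levels between genes were compared over the mean of all libraries, per length of the longest annotated transcript, coding where there was one. ZNF593 was highest at 54.8 CPM per kb, followed by ZNF146 at 48.7, ZNF664 at 40.9, ZNF384 at 37.2 and ZNF330 at 26.7. The order depends on that annotated length, which may not be the length expressed. ZNF207, highest in mean count, was divided by 13781 bases and came to 18.8 CPM per kb. ZNF593 ran from 27.4 CPM per kb in KO heat shock to 99.3 in KO recovery, so its place in that order depended on the group. ZNF146 (154, 149, 141 and 146 CPM in WT and 263, 246, 177 and 195 in KO) and ZNF664 (162, 184, 237 and 238 CPM in WT and 254, 245, 170 and 182 in KO) were near each other in CPM per kb and overlapped in their ranges. All 180 members had reads in every library, with a lowest count of 63. Exons of 51 members share at least 50 bases with another tested gene, and for 30 of them that gene has at least 25% of the member's CPM. Libraries were stranded per the labels' protocols, but the sources used here state no strand setting for the counting, and values of such members are uncertain.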

How the data were processed

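RNA from 8 samples was sequenced as 50-base single reads on strand-specific libraries, per the labels' protocols, either after poly-A selection or after removal of ribosomal RNA, without saying which for each library. CASAVA, TopHat and the hg19 build appear in the submitters' processing notes, and the sources used here state no counting program or strand setting. The authors deposited whole-number read counts per Ensembl gene, not normalized, for 2 libraries a table, with their own log2 fold change and q-value, per the file headers. Their log2 fold change matched the ratio of the count columns after division by column totals. NA was set to 0.

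Counts were tested with edgeR 4.0.16 (R 4.3.3): filterByExpr (17471 genes), TMM scaling, quasi-likelihood F test, Benjamini-Hochberg adjustment, threshold 0.05. Recovery was compared within pairs of one line and replicate number (2 residual degrees of freedom), and KO with WT without a block (4). Values after ± are standard errors, n = 2 libraries per group. CPM uses TMM-scaled library sizes. Library totals of 15507896 to 34387618 set the precision, and counts carry no molecular identifiers. GC content, lengths, fingers and the KRAB pattern came from GENCODE 29 transcripts matched by gene ID. The edgeR fit was tested on simulated counts for KO recovery against heat shock only. Those counts held no pair or GC effects. The other comparisons, DESeq2 and the GC and length offsets were not tested on simulated data.

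The members, gene lists, naming rule and tests were chosen with earlier results of these data known. The text names up to 6 members with the largest change in each direction per comparison that moved the same way in both pairs (between lines, without overlap of CPM). It also names members of the lists of RNA and ribosome proteins, regulators, SCAN factors and KRAB proteins with known targets, the co-repressor genes, and the members highest in count or nearest the threshold. Alternatives were upper-quartile and DESeq2 scaling, DESeq2 1.42.0, no filter, GC and length offsets, the block, each library left out, and other member rules.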

Additional observations from a re-analysis of the deposited data

Results flagged for a closer look

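The recovery response of 57 members was higher and that of 75 lower in KO than in WT cells, by the interaction term of the edgeR fit. Those shares, 31.7 and 41.7%, stood beside 28.5 and 27.8% of all tested genes and 39.6 and 29.8% of those with a mean count of at least 200. With GC and length offsets 62 members were higher and 36 lower, beside 5326 and 3508 of the 17471 tested genes. The members' share with a lower response was then near that of all tested genes. These results were flagged because the difference between the lines was itself tested. The largest differences on the log2 scale were -2.17 for ZNF204P, -1.81 for ZNF277, -1.61 for ZNF510, -1.60 for ZNF680, -1.51 for ZNF354A and -1.48 for ZNF273 on the lower side. On the higher side they were 2.85 for ZNF593, 2.63 for ZNF607, 1.87 for ZNF142, 1.68 for ZNF574, 1.66 for ZNF335 and 1.65 for ZNF384. ZNF204P, ZNF510, ZNF680 and ZNF273 reached the count rule through a single line, so their differences are a description. Groups of 2 libraries are too small for a test of outlying samples.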

How the results depend on the processing

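Alternatives were run for the shares of members called in each direction, their median log2 change and 135 gene results. With GC and length offsets, 15.6% of members rose in WT (median -0.22; 16.1% and -0.22 without the replicate block), 32.2% fell in KO (median -0.13, both also without the block), and 20% had a lower response in KO than in WT (20.6% without the block). The median difference of the responses then turned from -0.13 to 0.11, with and without the block, and the medians of KO against WT were -0.06 at heat shock and 0.08 at recovery, also with the replicate block. Under those offsets 3486 of the 17471 tested genes rose in WT, 2645 fell in KO and 3508 had a lower response in KO. In WT 85 members and 5414 of all tested genes then fell. Upper-quartile scaling gave medians of -0.01 in WT, -0.24 for the difference, -0.03 at heat shock and -0.19 at recovery, with 82 members lower and 46 higher at recovery. All tested genes shifted as well at recovery, with 6852 lower, 4212 higher and a median of -0.18. Without a filter the median was -0.06 for the difference and 0.06 at recovery. With a minimum mean count of 100 (261 genes) medians were -0.29 for the difference, -0.04 at heat shock and -0.15 at recovery, and with 500 (87 genes) 0.01 for the difference and 0.12 at recovery. A minimum mean CPM of 8 (196 genes) gave 0.00 at heat shock. DESeq2 called 6.67% of members higher in KO. Leaving out 1 library gave 4.44 to 18.3% higher, 25 to 51.1% lower and medians of -0.32 to -0.19 in KO recovery, medians of -0.12 to -0.04 for the difference and of -0.01 to 0.04 for KO against WT at heat shock. The cause of these shifts was not tested. Deviations of same-numbered libraries were uncorrelated (r = -0.0303 in WT and -0.00888 in KO), and the pairing within a line rests on the series' design text. Without the replicate block 43 members rose and 68 fell in WT, and 25 rose and 90 fell in KO. Of the gene results, 44 lost their call or changed sign in at least 1 setting. ZNF148 (0.10) and ZNF326 (0.18) changed sign in KO recovery with GC and length offsets, with or without the block. Replicates differed by more than sampling noise (chi-square per degree of freedom from 2.43 to 19), so none was merged.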
